A study of Drosophila melanogaster with 6 samples.

Results

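Trithorax group proteins keep developmental genes active by acting on chromatin and on the transcription machinery, opposite to the silencing Polycomb group. Some of them methylate histones, and others are subunits of the Brahma complex, which moves nucleosomes with energy from ATP. The genes skd and kto encode subunits of the Mediator kinase module, which binds the Mediator co-activator reversibly and controls its contact with RNA polymerase II. In the Drosophila ovary, chromatin remodellers are known to act in stem cells, Iswi in the germline and Domino in the somatic ones. The genes followed here are trx, ash1, ash2, brm, mor, osa, Snr1, kis, skd and kto. They were chosen by name, through every probe set annotated to one of them, and 9 of the 10 genes had such a probe set. ash1, which encodes another histone methyltransferase of the group, is not analysed here. The 9 genes had 10 probe sets of the 18952 on the array, with a pair for skd, and all 10 were among the 11477 probe sets bright enough to be tested.

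Transcript levels had been measured in ovaries with 6 oligonucleotide arrays of a single colour, on biotin-labelled total RNA. Of these, 3 came from females mutant for both stwl and bam, called stwl bam here, and 3 from females with the bam[delta86] mutation. Mutations in bam are thus common to all samples. The bam gene is needed for the daughters of germline stem cells to differentiate, and without it such undifferentiated cells pile up. stwl encodes Stonewall, a chromatin-linked protein that germline stem cells need to persist, and the comparison addresses which transcripts differ when it is mutated as well. The stwl allele, the bam allele of the double mutants and the females' age are not stated in the labels. The labels name ovaries and the series text germ cells, so how much somatic tissue the samples held is not known. Whether the samples of a genotype came from separate crosses is not stated, so the p-values rest on a spread that may be technical. In RNA from a tissue, fewer cells of a type and less RNA per cell cannot be told apart.

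Values of single arrays are intensities after quantile normalization, in arbitrary units. Changes are on the log2 scale of intensity plus an offset of 7.9, stwl bam minus bam, which understates changes of dim probe sets. A probe set was called where limma's two-sided adjusted p lay below 0.05. Levels are compared only within a probe set, since different probes differ in brightness. The probe sets of the members lay above their array's background on all 6 arrays.

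Of the 10 probe sets, 4 were lower in stwl bam ovaries and 0 were higher, and 6 were not called. The 4 belong to kis, osa and skd. Among all tested probe sets 12.0% were called lower and 11.2% higher. At an unadjusted p under 0.05, limma had 5 member probe sets lower and 0 higher, where 19.2% and 17.3% of all tested probe sets were so. The median change of the 10 was -0.30, beside -0.03 for all tested probe sets. On the normalized values, the genotypes' arrays were fully apart for 8 of the 10 probe sets, 7 lower and 1 higher in stwl bam. Of all tested probe sets, 21.6% and 19.5% were of these kinds. Leaving out bam replicate 1 left 2 member probe sets called lower. A linear model without pooling of spread across probe sets called 0 of them, with 4 lower and 1 higher at an unadjusted p under 0.05.

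**Figure D1:**
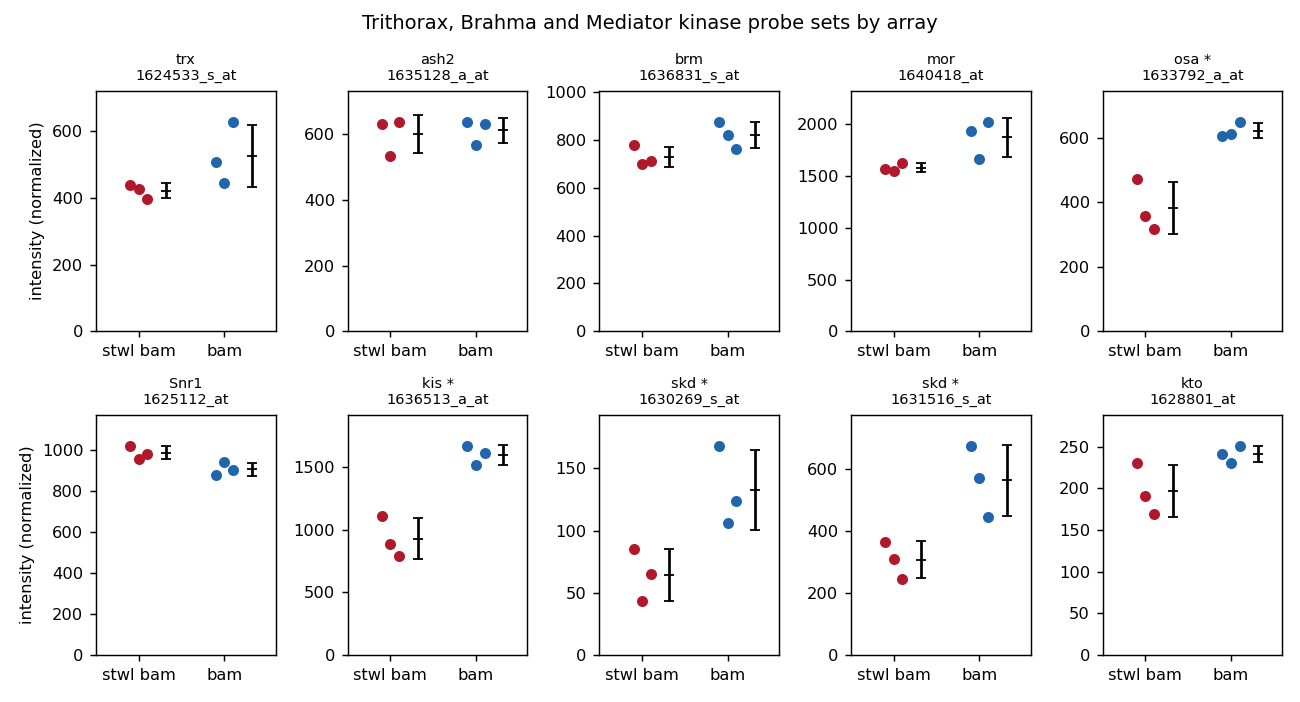
Normalized intensity of each member probe set (vertical axis, arbitrary units, from 0) on each array, stwl bam in red and bam in blue; black bars are the mean and SD of 3 arrays, and an asterisk marks a call. The 3 stwl bam arrays of kis lie between 788.1 and 1110.2, all below the bam arrays, while the groups of ash2 overlap.

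The largest changes among the members were in the Mediator kinase module. skd encodes its Med13 subunit, which links the kinase to the rest of Mediator. In the brighter of its probe sets, 1631516_s_at, it read 364.9, 309.7 and 246.5 on the stwl bam arrays, against 674.8, 570.6 and 444.5 on the bam arrays. Every stwl bam array lay below every bam array. The change was -0.86 ± 0.19 (SE, 95% interval -1.28 to -0.43), or 1.81-fold lower, with a limma adjusted p of 0.0130. The dimmer set, 1630269_s_at, read 85.0, 43.3 and 65.1 in stwl bam ovaries and 168.0, 106.0 and 123.4 in bam ovaries. Here too the groups did not overlap. Its change was -0.97 ± 0.27 (SE), or 1.96-fold lower, with a limma adjusted p of 0.0304, and 393 of the 11477 changes were more negative.

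Both skd calls ended without bam replicate 1, the array with the highest skd values, at changes of -0.72 (limma adjusted p = 0.0576) and -0.80 (0.127). That of the dimmer set also ended without bam replicate 3 or either of stwl bam replicates 2 and 3, and on the deposited intensities (0.0520). The gap between the skd sets was taken on each array to compare their changes. It was -2.15 ± 0.43 in stwl bam and -2.03 ± 0.29 in bam (log2, SD, n = 3 each), a difference of -0.12. An exact two-sided permutation test gave p = 0.6, where 0.1 is the smallest that 3 against 3 arrays allow. It could therefore not have shown an unequal change at 0.05. No other pair of sets was so tested, and the sign of this difference turned with 3 other normalizations.

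kto encodes Med12, the partner of Med13 in the module. It read 230.4, 190.8 and 169.6 in stwl bam ovaries, against 241.5, 231.0 and 250.9 in bam ovaries. These normalized values did not overlap, with stwl bam replicate 1 just below the lowest bam array. On the deposited intensities the groups overlapped, with stwl bam replicate 1 at 237.2 and bam replicates 1 and 2 at 216.8 and 236.5. The change was -0.29, with a 95% interval from -0.62 to 0.04 and a limma adjusted p of 0.183, so it was not called. Without stwl bam replicate 3 the change was -0.19. Cdk8 and CycC, the genes of the module's kinase and its cyclin, were both tested and neither was called. Cdk8 was at 0.02 (interval -0.25 to 0.29), with overlapping groups. CycC was at 0.29 (0.05 to 0.53, limma adjusted p = 0.0845), with 468.0, 548.0 and 551.7 in stwl bam above the 443.3, 422.8 and 411.5 of bam. On the same array, the mean of the skd sets minus kto differed by -0.62 between stwl bam and bam, a comparison chosen after its values were seen and not tested.

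kis encodes Kismet, a CHD-family remodeller that in Drosophila is linked to transcription elongation by RNA polymerase II. It read 1110.2, 885.2 and 788.1 on the stwl bam arrays, against 1667.4, 1513.0 and 1610.2 on the bam arrays. The gap between the groups was wider than the range within either of them. The change was -0.79 ± 0.12 (SE, 95% interval -1.08 to -0.51), or 1.73-fold lower, with a limma adjusted p of 0.00365. This adjusted p was the smallest among the members. The call held with each of the 6 arrays left out in turn, where the change ranged from -0.93 to -0.68. Without pooling of spread it was lost, at an adjusted p of 0.0541.

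The Brahma complex has a core that includes the ATPase Brm with Mor and Snr1, and Osa is the subunit that sets apart one of its forms, BAP. osa read 473.4, 356.3 and 317.9 in stwl bam ovaries, against 606.5, 611.3 and 648.8 in bam ovaries. The bam arrays lay close together and above every stwl bam array. The change was -0.71 ± 0.15 (SE, 95% interval -1.04 to -0.38), or 1.64-fold lower, with a limma adjusted p of 0.0106. This call too held with any single array left out, and it was lost without pooling of spread (adjusted p = 0.0785).

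None of the core members was called. brm read 778.4, 698.9 and 709.9 in stwl bam ovaries, against 874.0, 822.6 and 764.0 in bam ovaries. Its groups overlapped, and its change of -0.17 had an interval from -0.38 to 0.05. mor, which encodes a scaffold subunit, read 1564.0, 1550.5 and 1631.5 in stwl bam ovaries, against 1938.3, 1661.2 and 2020.7 in bam ovaries. Its groups did not overlap, its change was -0.24 (-0.44 to -0.03), and its limma adjusted p was 0.0881. Without bam replicate 2, the lowest bam array for mor, the adjusted p was 0.0393 at a change of -0.32. Snr1, which encodes the SNF5-type core subunit, was the single member with a positive change. It read 1018.9, 955.1 and 981.6 in stwl bam ovaries, all above the 875.2, 939.9 and 901.1 of bam ovaries. The change of 0.12 (-0.06 to 0.30) had a limma adjusted p of 0.314. On the same array, osa minus the mean of brm, mor and Snr1 differed by -0.61 between stwl bam and bam, again chosen after its values were seen and not tested.

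**Figure D2:**
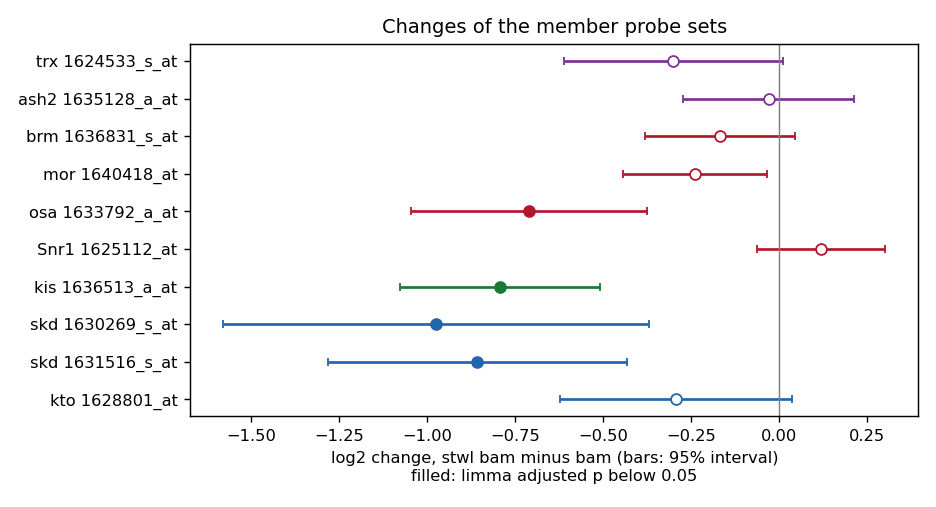
Log2 change (stwl bam minus bam, horizontal axis) with 95% interval for each of the 10 member probe sets, filled where called; purple marks trx and ash2, red Brahma, green kis and blue Mediator kinase genes. The sets of skd, kis and osa lie between -0.97 and -0.71, and ash2 lies at -0.03.

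Of the 7 other Brahma subunit genes listed, 4 were tested, and 1 rose and 2 fell. Among all tested genes, 11.1% were called higher and 13.0% lower. The genes that were called encode subunits of PBAP, the form of the complex without Osa. polybromo, whose product has several bromodomains, read 224.6, 163.7 and 171.0 in stwl bam ovaries, against 275.7, 287.4 and 293.6 in bam ovaries. It fell by 0.61 on the log2 scale (limma adjusted p = 0.0199). Bap170, which encodes an ARID-type subunit, read 516.7, 431.2 and 391.3 in stwl bam ovaries, against 643.8, 609.6 and 671.3 in bam ovaries, and fell by 0.52 (0.0164). e(y)3, which encodes the subunit SAYP, went the other way. It read 807.7, 589.7 and 548.3 in stwl bam ovaries, against 303.4, 402.5 and 251.7 in bam ovaries, a rise of 1.01 ± 0.20 (SE, limma adjusted p = 0.00848). Bap60, a core subunit gene, was not called at -0.26 (0.0548). Subunit genes specific to one form thus moved both ways, and the tested core genes brm, mor, Snr1 and Bap60 were not called, a difference that was not tested. The call of polybromo was lost without stwl bam replicate 3 or any single bam array, and that of Bap170 without stwl bam replicate 3, bam replicate 1 or bam replicate 3. That of e(y)3 held with any single array left out. With replicates 2 and 3 only, a setting chosen after seeing the data, it was lost (limma adjusted p = 0.0521). The linear model without pooling of spread called none of polybromo, Bap170 and e(y)3 (adjusted p = 0.0734, 0.0752 and 0.0863).

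Neither tested member among the histone methylation genes was called. trx, which encodes a histone H3 methyltransferase of the MLL type, read 440.6, 428.5 and 396.8 in stwl bam ovaries, against 506.9, 443.8 and 627.6 in bam ovaries. The groups were just apart, by the gap between stwl bam replicate 1 and bam replicate 2. The change of -0.30 had an interval from -0.61 to 0.01 and a limma adjusted p of 0.150. Without bam replicate 3, the highest bam array for trx, the change was -0.17 (0.404). ash2 encodes a subunit shared by the complexes of this type of enzyme. It read 632.0, 534.1 and 635.6 in stwl bam ovaries, against 636.1, 568.2 and 629.5 in bam ovaries, and the groups overlapped. Its change was -0.03 (-0.27 to 0.22, limma adjusted p = 0.881), an interval that leaves out a fall of the size of osa's.

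In the rest of the COMPASS family, the complexes around such enzymes, 13 of 14 listed genes were tested, and 2 rose, 1 fell and 10 were not called. The shares over all tested genes were 11.1% called higher and 13.0% lower. The median change of the list was -0.04, and that of all tested genes was also -0.04. trr, which encodes another H3 methyltransferase of the family, read 221.0, 154.7 and 112.6 in stwl bam ovaries, against 336.8, 291.1 and 286.1 in bam ovaries. It fell by 0.92 (limma adjusted p = 0.0195), which did not pass once any bam array was removed, and another trr probe set was at -0.51 (0.0711). wds, which encodes a WD-repeat subunit common to the family, read 489.5, 513.1 and 485.4 in stwl bam ovaries, against 358.2, 292.5 and 342.8 in bam ovaries. It rose by 0.58 (limma adjusted p = 0.00845), and the groups were far apart. Pa1, which encodes a subunit of the trr complex, rose by 0.38 (0.0343), a call lost without any single array except bam replicate 1. The Ash1 partner genes MRG15 and Caf1-55 were not called, at 0.25 (0.304) and -0.05 (0.759).

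Of the Mediator core, which the kinase module binds, 23 of 26 listed genes were tested. Of these, 3 rose, 4 fell and 16 were not called, where 11.1% of all tested genes were called higher and 13.0% lower. The median change of the list was -0.11, beside -0.04 for all tested genes. MED24 read 161.4, 147.5 and 162.8 in stwl bam ovaries, against 255.3, 271.6 and 286.9 in bam ovaries, and fell by 0.76 (limma adjusted p = 0.0044). MED16 fell by 0.74 (0.0136). Both belong to the tail of Mediator, the part that activators contact. Whether the tail genes as a group changed was not tested. MED20, a head subunit gene, rose by 0.56 (limma adjusted p = 0.0213), and MED28 by 0.49 (0.0455). MED24 kept its call under all 20 alternative settings, while those of MED16 and MED20 ended for 2 and 3 single arrays and that of MED28 for each of the 6. The other called genes, MED14, MED10 and MED30, had changes of -0.45, -0.35 and 0.37 (limma adjusted p = 0.0459, 0.0195 and 0.0454). The calls of MED14 and MED30 were each lost for 5 of the 6 single arrays, and that of MED10 without bam replicate 2 or 3 and on the deposited intensities (0.119). They are named beyond the rule for naming genes, after their values were seen.

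**Figure D3:**
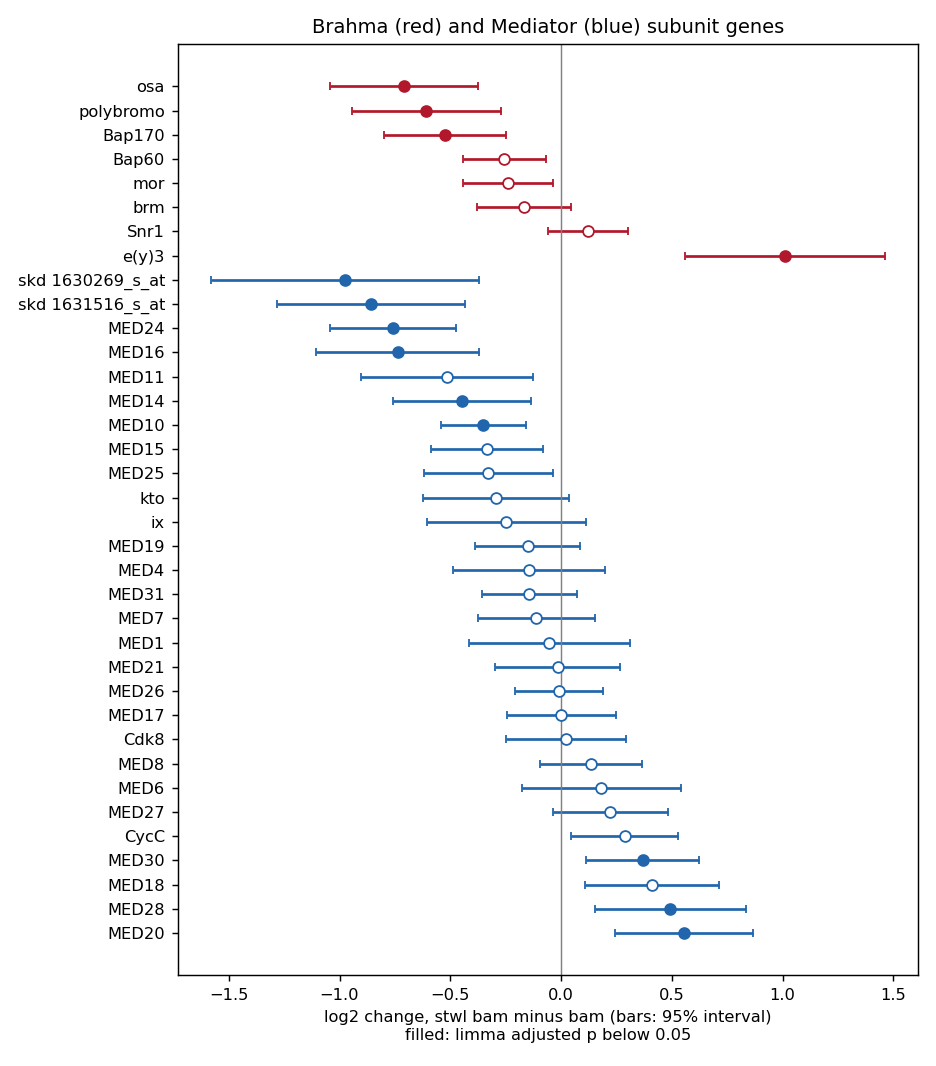
Log2 change (stwl bam minus bam, horizontal axis) with 95% interval for the tested Brahma (red) and Mediator (blue) subunit genes, 1 probe set per gene except skd, ordered by change within each complex and filled where called. In Brahma, osa, polybromo and Bap170 lie at the low end and e(y)3 alone at the high end, and both skd sets lie below every other Mediator gene.

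Among other ATP-dependent remodellers, the class of brm and kis, 11 of 14 listed genes were tested, and 2 rose, 4 fell and 5 were not called. Of all tested genes, 11.1% were called higher and 13.0% lower. The median change of the list was -0.24, beside -0.04 for all tested genes. dom, which encodes a SWR1-type ATPase, read 465.5, 410.9 and 315.5 in stwl bam ovaries, against 1081.6, 986.5 and 979.6 in bam ovaries, and fell by 1.35 (limma adjusted p = 0.00061). Its groups were far apart, but its other probe sets were at -0.46 (0.138) and -0.16 (0.536) and were not called. Whether the dom sets changed unequally was not tested. Mi-2, the ATPase gene of the NuRD complex, read 1016.3, 997.0 and 911.7 in stwl bam ovaries, against 1555.0, 1486.8 and 1596.6 in bam ovaries, and fell by 0.66 (limma adjusted p = 0.00118). Iswi read 861.0, 722.2 and 748.2 in stwl bam ovaries, against 1175.0, 1243.0 and 1256.5 in bam ovaries, and fell by 0.65 (0.00233). Chd1, a CHD-family gene like kis, fell by 0.51 (0.0131), which did not pass when bam replicate 1 or 3 was removed. The rises were those of Nurf-38, which encodes a subunit that Iswi works with, by 0.49 (0.00204), and of the Mi-2 relative Chd3 by 0.42 (0.0199), both named after their values were seen. That of Chd3 did not pass without stwl bam replicate 3 or any single bam array. The calls of Mi-2, Iswi, Nurf-38 and the called dom set held under all 20 alternative settings.

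Of 10 other genes linked to trithorax function, 8 were tested, and 1 rose, 1 fell and 6 were not called. Kdm5, which encodes a histone H3 demethylase and is also known as lid, rose by 0.50 (limma adjusted p = 0.0399). psq, which encodes a protein that binds GAGA-type DNA sequences, fell by 0.50 (0.0484). Each of these calls was lost for 5 of the 6 single arrays left out. Homeotic selector genes are the classic targets of the trithorax group. Of 8 listed, 4 had a probe set and only Antp was bright enough to test. It read 389.6, 86.7 and 152.0 in stwl bam ovaries, against 89.9, 122.1 and 103.3 in bam ovaries, with stwl bam replicate 1 far above the other arrays. The groups of this set overlapped, and it was not called (0.70, limma adjusted p = 0.296). Another Antp set read 244.5, 70.6 and 93.5 in stwl bam ovaries, all above the 65.1, 51.6 and 63.0 of bam ovaries. It was not called either (0.90, limma adjusted p = 0.133). Over the 8 lists, 64 of 83 genes were tested, and 9 rose and 12 fell. The shares over all tested genes were 11.1% called higher and 13.0% lower. With median centring 5 rose and 15 fell, and with rescaling to 1 trimmed mean 6 and 15, so the split depends on the scaling.

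Most of the members share 2 features that their choice did not use. The first is length: when the 8722 tested genes with an annotated length were divided into 5 groups by it, 6 of the 9 members, trx, brm, osa, kis, skd and kto, fell in the longest. Of these, osa, kis and skd were called lower. Of the shorter members, mor, ash2 and Snr1, 0 were called in either direction by limma, and mor alone had an unadjusted p under 0.05. From the shortest group to the longest, 3.78%, 4.48%, 9.64%, 24.0% and 23.1% of all genes were called lower, and 16.5%, 15.2%, 10.1%, 7.0% and 6.76% higher. Genes of the longest 2 groups were thus more often called lower than those of the other groups. The other remodeller genes that were called lower lie in these groups too, dom, Mi-2 and Chd1 in the longest and Iswi in the next. Nurf-38 and Chd3, which were called higher, lie in the middle group. Of the other listed genes called lower, polybromo, Bap170, MED24, MED14, trr and psq also lie in the longest 2 groups. MED16 and MED10, called lower too, lie in the middle and the shortest group. Of the other listed genes called higher, e(y)3 and Kdm5 lie in the longest group. Pa1, wds, MED20, MED28 and MED30, also called higher, lie outside the longest 2 groups. The part of length in the values of the members and of these genes was not tested.

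**Figure D4:**
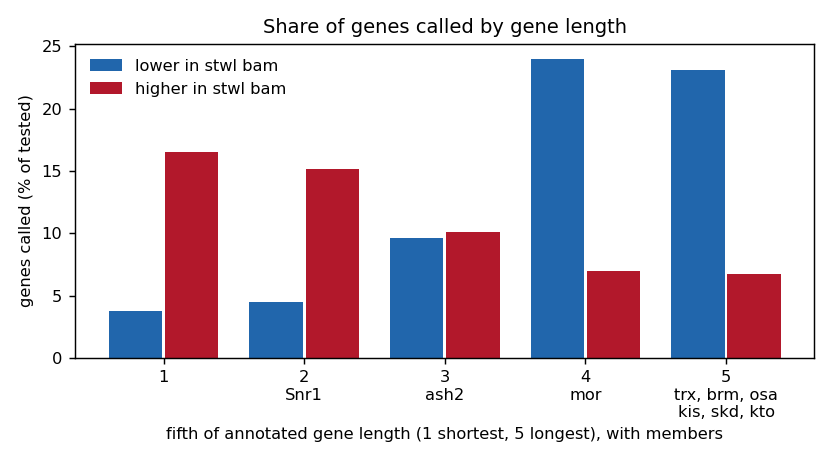
Share of tested genes called lower (blue) and higher (red) in stwl bam ovaries, in percent, for 5 equal groups of genes from the shortest (1) to the longest (5), with the members of each group named under it. Of the longest genes 23.1% were called lower, and the group holds 6 members, among them osa, kis and skd.

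The second is position. All of the members but kis lie on chromosome 3, which carries stwl and bam as well, and kis lies on 2L. On 3L and 3R, 13.0% and 12.4% of tested genes were called lower, against 12.3% on 2L, 14.7% on 2R and 12.2% on X. The share on chromosome 3 was thus within the range of the other arms. Shares over whole arms cannot show differences confined to the regions near stwl or bam. The part of position in the values of the members was not tested.

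Most member probe sets also shared a feature of order among the stwl bam arrays. For 8 of the 10 probe sets, replicate 1 was the highest stwl bam array, including all 4 called ones. Over all tested probe sets this was so for 33.1%, and over those called lower for 45.2%. For the called members, stwl bam replicate 1 was therefore the array nearest to the bam arrays. Without it the changes of kis and of the brighter skd set were -0.93 and -0.99.

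By distance between the 6 log2 values, each centred on its mean, the probe sets most like the dimmer skd set were those of yellow-h, GEFmeso and slbo, of 9528 single-gene sets compared. Their distances were 0.27, 0.28 and 0.30. Their log2 changes were -0.997, -1.09 and -0.96, and that of slbo was not called (limma adjusted p = 0.0591). This is a description over 6 arrays that fall into 2 genotypes.

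Several measures of the samples moved with genotype, and their part in the members' values was not tested. For the actin control, the 5' signal over the 3' signal ran from 0.524 to 0.675 in stwl bam and from 0.129 to 0.183 in bam. For eIF-4a it ran from 0.417 to 0.448 in stwl bam against 0.0798 to 0.108 in bam, and for GAPDH from 0.258 to 0.374 against 0.124 to 0.152. Germ cell markers were present in both genotypes, with summed intensities of 11 genes from 13604 to 15045 in stwl bam and from 14211 to 15130 in bam. Of the 11, 3 were called higher, among them the mutated gene bam itself, and 2 lower. Of 9 tested haemocyte markers 6 were lower and 0 higher, with sums from 2592 to 2902 in stwl bam against 4178 to 4553 in bam. Of 7 tested ovarian somatic markers 2 were lower and 0 higher. Sums over the 9 such markers with a probe set ran from 1861 to 2271 in stwl bam against 2581 to 2924 in bam. Muscle markers were higher for 5 of 9, with sums from 19427 to 25439 in stwl bam against 13554 to 14394 in bam, and fat body markers for 2 of 4, from 1989 to 4468 against 701.3 to 1255. Of 7 yolk and eggshell markers 0 were called by limma, and their sums ran from 8105 to 58925 in stwl bam and from 44131 to 52336 in bam. Of the muscle, fat body, haemocyte and ovarian somatic markers with a probe set, none lay below background on all arrays. Sums of neuron markers ran from 137.6 to 204.4 in stwl bam and from 139.0 to 146.8 in bam, with nSyb and para below background on every array. Testis markers summed to 400.3 to 473.9 in stwl bam and 513.7 to 540.2 in bam, with Mst87F, dj, nht and sa below background on every array. The bam probe set read 377.2, 169.2 and 287.4 in stwl bam and 103.7, 99.9 and 105.8 in bam, and was called higher at a change of 1.29 (limma adjusted p = 0.00935), although bam is mutated in both genotypes. The stwl probe set read 70.0, 81.6 and 46.0 in stwl bam and 91.8, 79.6 and 73.4 in bam, overlapping values (limma adjusted p = 0.396). What part of the transcript either set covers is not known here, so they do not check the labels. Correlations between arrays of a genotype ran from 0.952 to 0.967 in stwl bam and from 0.975 to 0.979 in bam.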

How the data were processed

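The authors deposited 1 linear intensity for each probe set and array, with GCOS as the software (the submitters' processing notes), its version and settings not stated there. Their 2% to 98% trimmed mean was 250.0 on 5 arrays and 220.5 on bam replicate 1, so all but the 183 control sets were quantile-normalized. Log2 was taken after adding 7.9, the 25th percentile of all intensities. Probe sets at or above the 40th percentile on at least 3 of 6 arrays were kept. Of 18952 probe sets, 13647 had 1 gene in the platform annotation, and 13544 of these matched a RefSeq gene number (Release 6). Genes in lists were represented by their brightest set. One fit with limma 3.58.1 in R 4.3.3 (lmFit, eBayes with intensity trend) covered all kept sets, with Benjamini-Hochberg adjustment. It was tested on simulated data. Background per array was the 95th percentile of 44 bacterial and tag control sets, from 13.5 to 38.8. The number of arrays limits the precision.

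The members, lists, rules and settings were chosen with earlier results of these data known. Named are all members, from each list up to 4 called genes with the largest change (where none was called, up to 2 with the smallest p), and the 3 probe sets nearest to the most changed member. The listed gene lid was read as Kdm5. Alternatives concerned the normalization, the offset, the filter, the threshold, the arrays in the fit, their weights, a block for replicate number, and the prior and pooling of the spread. Median centring used the kept sets.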

Additional observations from a re-analysis of the deposited data

How the results depend on the processing

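The 4 lower member sets became 0 without pooling of spread and 1 at a threshold of 0.01, and ran from 2 to 5 with single arrays left out. No member was called higher by limma under any setting, with 0 or 1 at an unadjusted p under 0.05. Over all kept probe sets the main counts were 1286 higher and 1381 lower. They were 608 and 571 without pooling, 573 and 535 at a threshold of 0.01, and 748 and 808 with replicates 2 and 3 only, an alternative chosen after seeing the data. With single arrays left out they ran from 706 to 1308 higher and from 666 to 1485 lower, and with intensities as deposited they were 1289 and 930. Array weights raised them to 1552 higher and 1736 lower. Over the 8 lists, the 9 higher genes became 5 with median centring or no filter, 3 without intensity trend or at a threshold of 0.01, 2 without pooling, 4 with replicates 2 and 3 only and 4 to 8 with single arrays left out. The 12 lower ones became 7 without pooling, 4 at a threshold of 0.01 and 4 to 14 with single arrays left out. Over the alternatives other than single arrays left out, the listed genes ran from 2 to 12 higher and from 4 to 17 lower. The difference of -0.12 between the skd sets was 0.033 on deposited intensities, under median centring and with an offset of 32, 0.037 with rescaling, and -0.29 to 0.13 with single arrays left out. The change of ash2 ran from -0.079 to 0.053 with single arrays left out, turning positive for bam replicate 1 (0.0014) and stwl bam replicate 2. The causes were not tested. Same-numbered arrays of the genotypes did not deviate together from their group means (r = -0.054, -0.025 and 0.0028 across probe sets), and not every array correlated best with its own number. A fit with the replicate number as a block gave 1162 higher and 1225 lower sets, 4 lower member sets and 7 higher and 13 lower listed genes.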
